A study of Ovis aries with 32 samples.

Results

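The interventricular septum (IVS), the muscular wall between the 2 ventricles, was compared between 8 lambs of cortisol-treated ewes (CORT) and 8 lambs of untreated ewes (Control). These are 16 of the 32 arrays of the series, taken by their tissue label, and the other 16 arrays hold left ventricle (LV). CORT ewes received an infusion of cortisol at 0.5 mg/kg/day, given overnight from day 115 of gestation until they delivered. Control ewes were catheterised in the same way and were not infused. No lamb of either group was given cortisol itself, and the septum was taken at 14 days of age. The groups therefore differ in the cortisol that the mothers received before birth. Per the methods, twins occurred in both groups of ewes, and lambs of both sexes were used. The Control ewes bore 8 lambs in all, so both lambs of the Control twin pair are among the 8 Control arrays. Whether both CORT twins are among the arrays is not given. The lambs are therefore not fully independent, although the tests treated them so, and p-values measure the spread between these animals. The sex of the lamb behind each array is not given in the labels and was not used.

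Cortisol crosses into cells and binds the glucocorticoid receptor, which then enters the nucleus and raises or lowers the transcription of its target genes. In late gestation the natural rise of cortisol matures the fetal lung, liver and heart. Around birth the heart muscle leaves the cell cycle and turns from glucose and lactate to fatty acids as its fuel. The comparison asks which genes of the septum still differed weeks after the maternal infusion had ended.

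RNA of each septum was labelled and hybridised to 1 Agilent sheep array with 15008 probes of 60 bases. The median spot intensity lay between 131 and 332 per array, between 67.0 and 80.4% of spots were well above background, and 0 spots were saturated. The arrays lay on 3 slides with 3 scan days. Slide 1 held Control 1 and 2 with CORT 1 and 2, slide 2 held Control 3, 4 and 5 with CORT 3 and 4, and slide 3 held Control 6, 7 and 8 with CORT 5, 6, 7 and 8. The first principal component, with 31.6% of the variance, set the 4 arrays of slide 1 apart from the other 12. Array weights estimated from the residuals were lowest for Control 8 (0.24) and Control 3 (0.35), followed by CORT 2 (0.50) and CORT 1 (0.52). Counts are therefore also given without slide 1, and without Control 3 and 8.

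Marker genes were read for the cell types in the tissue. They do not tell septum from LV, so that part of the label was not checked. Both cardiomyocyte markers that the files name, myoglobin (MB) and tropomyosin 1 (TPM1), were bright on all 16 arrays. The log2 intensity of MB averaged 18.22 ± 0.35 (SD, n = 8) over the Control lambs, and 18.29 ± 0.11 (SD, n = 8) over the CORT lambs. Markers of endothelium (4 tested), fibroblasts (4), smooth muscle (1, CNN1), leukocytes (4) and erythrocytes (2) had 0 members past the threshold used below (an unadjusted limma p of 0.05), with each gene read by its brightest probe. A dimmer probe of the fibroblast marker DCN, a matrix proteoglycan, did pass and was higher in CORT (0.19, SE 0.07, limma p of 0.0146), and the brightest DCN probe gave 0.16 (limma p of 0.0621). Of the 3 adipocyte markers tested, LPL, which is also made by heart muscle, was lower in CORT. HBB, the beta chain of haemoglobin, varied widely between Control lambs (13.18 ± 2.28, SD, n = 8) and had a mean of 13.49 ± 1.00 (SD, n = 8) in CORT lambs. No marker of the conduction system or of nerve has a name in the files. The tissue was homogenised whole, so fewer cells of a type and less RNA per cell cannot be told apart.

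CORT and Control lambs were compared by the moderated test of limma with slide as a block. Of the 12020 probes bright enough to be tested, 900 (7.49%) had an unadjusted p below 0.05, the threshold that the study used. Of these, 480 (3.99% of those tested) were higher and 420 (3.49%) were lower in CORT lambs. After Benjamini-Hochberg adjustment over all probes 0 passed, with a lowest adjusted p of 0.644. Every single gene below therefore passed the unadjusted threshold at most. The differences were small, with a median size of 0.24 on the log2 scale among the 900. The median over all probes was -0.01.

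Of the 900 probes, 775 (6.45% of those tested) differed in the same direction on all 3 slides, 414 higher and 361 lower. Over all probes 2876 (23.9%) did so. The 900 were chosen by a difference that combines these 3 slides, so their agreement in direction is partly built in and is no separate evidence. Slide 1 carried the widest differences. On slides 1, 2 and 3 the median size of the difference between groups was 0.23, 0.11 and 0.11 over all probes, and 0.43, 0.21 and 0.14 among the 900. Slide 1 gave the largest of the 3 differences for 666 of the 900 and for 7384 of the 12020. Without slide 1 the count fell to 331 probes (2.75%), with a lowest adjusted p of 0.999 (limma, Benjamini-Hochberg). With no difference between groups a threshold of 0.05 passes about that fraction of probes, the chance level, and 2.75% lay below it. Of the tested probes, 194 (1.61%) passed both with and without slide 1, 110 of them higher. Passing without slide 1 therefore does not by itself set a gene apart from chance. Without Control 3 and 8 the count was 934 (7.77%), and without those 2 and slide 1 it was 428 (3.56%, below the chance level). Leaving out slide 3 in place of slide 1 raised it to 2288, and 1 probe then passed after adjustment (adjusted p = 0.00437). Without the slide block the count was 433 (3.6%, below the chance level), of which 166 were higher. Leaving out single arrays moved it as well, to 560 without Control 2, 1382 without Control 5 and 1482 without Control 8, with 0 past the adjusted threshold each time.

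**Figure D1:**
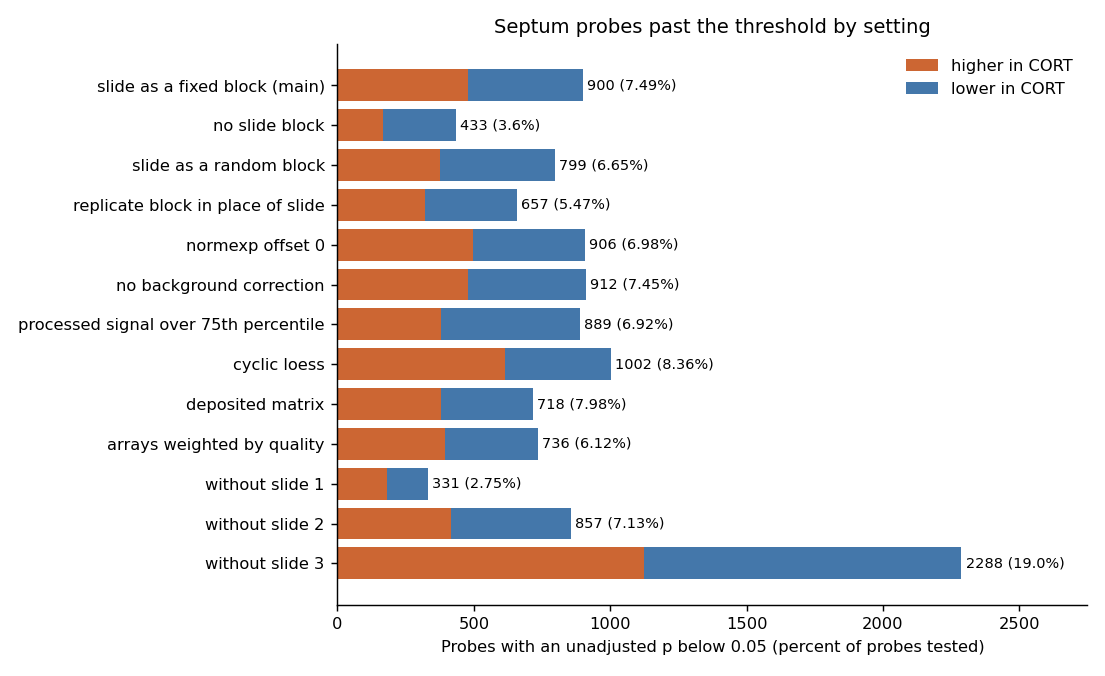
Number of septum probes with an unadjusted p below 0.05 (limma) under 13 settings, as bars split into probes higher (orange) and lower (blue) in CORT lambs, with the count and the percent of probes tested beside each bar. The count was 900 (7.49%) with slide as a fixed block, 433 without the block, 331 without slide 1 and 2288 without slide 3.

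Most probes carry no gene name. The files and a reference table name 1562 of the 15008 probes. Further names were traced for genes that the study lists as differing in the septum, from the single probe of the deposited matrix that matches the listed values within rounding. Among the genes below, CBR1, DNAJC21, DGAT2, BTBD10 and most others with the lowest p are named only by tracing. Genes named in that way were listed because they differed on these same arrays, so their differences are no independent evidence. Among the genes that the files name, 749 were tested and 62 (8.28%) passed, 38 higher and 24 lower, with a median log2 difference of 0.01. Each gene below is described by CORT minus Control in log2 intensity, adjusted for slide. An exact permutation test, printed for part of the genes, reassigned the groups within slides in all 2100 ways and can give no p below 0.000476. Missing values left fewer ways for CXCL1 (1260), RPL34 (1200) and NDUFA12 (600). Some genes that passed by limma had an exact permutation p above 0.05. These include SEC24C (0.0552), TCEB1 (0.0514), SNRNP40 (0.0695), EXOSC2 (0.0757), ZFP36 (0.0757), DERL1 (0.0738) and LAMA4 (0.0633). Others were RUNX1 (0.0667), PTGER3 (0.0719), FCGRT (0.059), LPL (0.0519), RPL34 (0.0592) and MRPL33 (0.101).

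RGS2, DNAJC21, CBR1, DGAT2, IDH1 and BTBD10 differed in the same direction on each slide, and all 6 passed with and without slide 1. The same direction on all slides was a condition for choosing RGS2, DNAJC21, CBR1 and BTBD10, so for them it is no finding. The fit without slide 1 reuses arrays of the full fit and is no separate evidence. The other slides mattered for 3 of them, since DGAT2 (limma p of 0.169) and BTBD10 (0.087) did not pass without slide 3, nor IDH1 (0.263) without slide 2. RGS2 encodes a regulator that shortens signalling through G proteins, among them those of vasoconstrictor receptors, and is a known glucocorticoid-induced gene. Its log2 intensity was lowest at 7.94, had a median of 8.69 and was highest at 8.97 in Control lambs, against 8.57, 9.40 and 9.73 in CORT lambs. CORT 1 and CORT 4 lay within the Control range and the other 6 CORT lambs above all Controls. The difference was 0.64 (SE 0.15, p of limma = 0.000703, exact permutation p = 0.00381), or 1.56-fold, and it was 0.48, 0.84 and 0.59 on slides 1, 2 and 3.

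DNAJC21, a co-chaperone that takes part in the maturation of the large ribosomal subunit, was lower in CORT lambs. Control lambs lay between 10.98 and 11.54 (median 11.17), and CORT lambs between 10.04 and 11.20 (median 10.47). The difference was -0.58 (SE 0.12, p = 0.000149, exact permutation p = 0.000952), the lowest limma p among the named genes. All 8 CORT lambs lay below the Control mean, 5 of them below every Control lamb. Slide 1 showed the smallest difference (-0.22) and slides 2 and 3 larger ones (-0.63 and -0.76).

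CBR1, a carbonyl reductase that uses NADPH to reduce prostaglandins and other carbonyl compounds, was higher in CORT lambs. The lowest, median and highest Control values were 8.55, 9.60 and 9.68, and those of CORT lambs were 9.37, 9.77 and 10.31. The groups did not overlap on any slide, as held for 21 of the 12020 probes (0.175%). The difference was 0.42 (SE 0.09, p = 0.000438), and the exact permutation p of 0.000476 is the smallest the design allows. Over all 16 arrays together CORT 1 and 2 lay inside the Control range.

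DGAT2, which adds the last fatty acid in the synthesis of triglyceride, had the largest difference among the named genes that also passed without slide 1. Control lambs lay between 7.99 and 9.84 (median 8.90) and CORT lambs between 8.36 and 11.66 (median 10.57). The difference was 1.29 (SE 0.39, p = 0.00443, exact permutation p = 0.0148), a 2.45-fold higher level. It was 0.85, 0.91 and 1.82 on the 3 slides. Of the 8 CORT lambs, 6 lay above all Controls, and CORT 1 was below the Control median.

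IDH1, the cytosolic isocitrate dehydrogenase that supplies NADPH, was lower in CORT lambs. Control lambs lay between 12.04 and 13.55 (median 13.05), and CORT lambs between 11.94 and 12.62 (median 12.38). The difference was -0.53 (SE 0.19, p = 0.0135, exact permutation p = 0.0286). The ranges overlapped, since Control 1, 7 and 8 were as low as CORT lambs, and slide 2 held the largest difference (-1.21 against -0.22 and -0.24). BTBD10, whose product is known to promote AKT signalling, differed by -0.31 (SE 0.08, p = 0.00104, exact permutation p = 0.0019). Its CORT values lay between 8.83 and 9.13 (median 9.06), those of Control lambs between 9.02 and 9.68 (median 9.30), and every CORT lamb was below the Control mean.

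**Figure D2:**
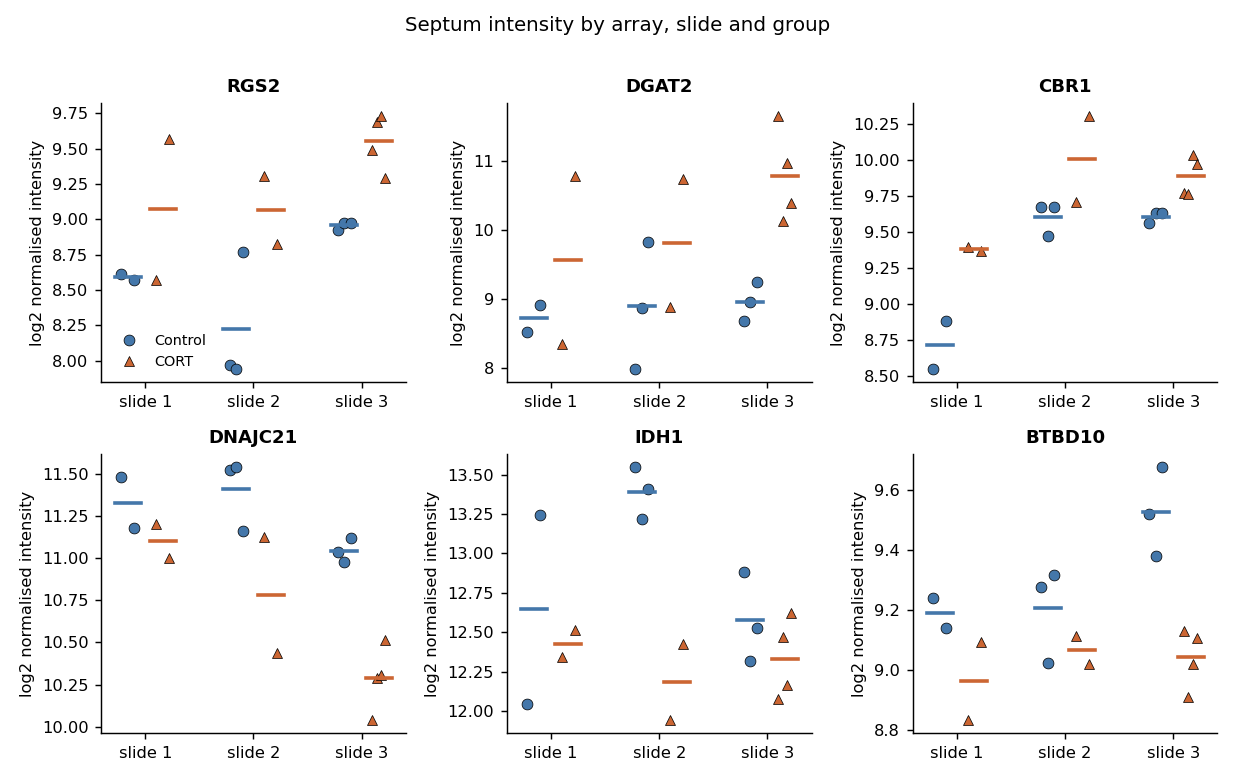
Log2 normalised intensity of 6 genes in the septum, 1 panel per gene, by slide (x axis), with Control lambs as blue circles, CORT lambs as orange triangles and the mean of each group on a slide as a bar. RGS2, DGAT2 and CBR1 had higher and DNAJC21, IDH1 and BTBD10 lower means in CORT lambs on each slide, and the groups of CBR1 did not overlap on any slide.

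Among the other genes with the lowest p in the higher direction, AIMP2, MPST, ING3, LIMCH1, ECH1, VPS28, TMCO6 and RPL13A passed with and without slide 1. AIMP2, a scaffold of the complex of aminoacyl-tRNA synthetases, lay between 8.08 and 8.75 in Control and between 8.70 and 8.99 in CORT lambs, a difference of 0.33 (SE 0.08). MPST, a mitochondrial and cytosolic enzyme that makes hydrogen sulphide, differed by 0.29 (SE 0.07, exact permutation p = 0.000952), and the slides gave 0.36, 0.19 and 0.33. LIMCH1, an activator of non-muscle myosin, was similarly even over the slides (0.36, 0.23 and 0.26; fitted 0.28, SE 0.08). ECH1, an isomerase of the breakdown of unsaturated fatty acids, differed by 0.29 (SE 0.08), and VPS28, a subunit of the sorting complex ESCRT-I, by 0.32 (SE 0.09). ING3, a subunit of a histone acetyltransferase complex, differed by 0.41 (SE 0.11), and TMCO6, a membrane protein of little-known function, by 0.36 (SE 0.10). RPL13A, a protein of the large ribosomal subunit, had a difference of 0.45 (SE 0.11) that was 0.93 on slide 1 and 0.14 and 0.38 on the others. Without slide 1 and without Control 3 and 8 the p of ING3 (0.103), ECH1 (0.0753) and RPL13A (0.123) was above 0.05, and the other 5 remained below it.

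The genes with the lowest p in the lower direction besides DNAJC21 and BTBD10 were FGF7, C9orf78, ST6GAL2, TRIM5, ZNF711, FAM105A, LUC7L2 and GLUL, and all 8 passed with and without slide 1. C9orf78, a protein bound to the spliceosome, had CORT values of 11.42 to 12.02 (median 11.84) against Control values of 11.99 to 12.52 (median 12.13). Below all Controls lay 7 of its 8 CORT values, and the difference was -0.41 (SE 0.10, exact permutation p = 0.0019). TRIM5, an antiviral restriction factor, likewise had 7 of 8 CORT lambs below all Controls, with a difference of -0.29 (SE 0.07, exact permutation p = 0.00143). ZNF711, a zinc finger transcription factor, was even over the slides (-0.20, -0.22 and -0.28; fitted -0.24, SE 0.06). GLUL, glutamine synthetase, lay between 13.96 and 15.06 in Control and between 13.77 and 14.08 in CORT lambs, a difference of -0.48 (SE 0.13). ST6GAL2, a sialyltransferase, differed by -0.35 (SE 0.09). FAM105A, a protein related to a deubiquitinase, differed by -0.45 (SE 0.12), with a limma p of 0.0634 without slide 3. LUC7L2, a splicing factor of the U1 particle, differed by -0.34 (SE 0.09), and its p without slide 1 and without Control 3 and 8 was 0.105.

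TMOD3, a tropomodulin that caps the slow-growing ends of actin filaments, had the largest fitted decrease among the named genes. Control lambs lay between 10.77 and 11.79 (median 11.40) and CORT lambs between 9.46 and 11.48 (median 10.76). The difference was -0.70 (SE 0.25, p = 0.0149, exact permutation p = 0.0252), and the ranges overlapped in 4 CORT lambs. The 3 slides gave -0.11, -1.39 and -0.56, and without slide 1 the fit gave -0.90 (limma p of 0.00588). TMOD3 did not pass without slide 2 (limma p of 0.141) or without slide 3 (0.0674). TXNIP, which restrains glucose uptake and binds thioredoxin, followed with -0.60 (SE 0.24, exact permutation p = 0.0314), and the slides gave -1.25, -0.83 and -0.07. All 8 CORT lambs lay below the Control mean of TXNIP but none below all Controls, and its limma p without slide 1 was 0.11.

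Of the probes without a gene name, 4 are given by their ID. A_70_P010601 had CORT values of 8.49 to 8.71 and Control values of 8.76 to 9.31. It was the single probe of 12020 (0.00832%) whose groups did not overlap over all 16 arrays, with a difference of -0.32 (SE 0.08, exact permutation p = 0.000476). A_70_P062601 (0.42, SE 0.10) and A_70_P019871 (0.23, SE 0.06) were higher in CORT lambs, with groups that did not overlap on any slide. A_70_P002426 was lower by 0.30 (-0.30, SE 0.07).

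Several genes were read by more than 1 probe. The sequences of 5 pairs of probes are shown because they tell which readings come from the same stretch of a transcript and which come from separate stretches. They are printed 5′ to 3′ as the scanner files hold them, with the bases that both probes of a pair share in capitals.
RGS2 A_70_P012621: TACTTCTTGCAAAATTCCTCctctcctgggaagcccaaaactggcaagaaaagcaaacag
RGS2 A_70_P012622: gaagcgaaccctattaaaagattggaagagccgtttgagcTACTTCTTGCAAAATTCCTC
DERL1 A_70_P035956: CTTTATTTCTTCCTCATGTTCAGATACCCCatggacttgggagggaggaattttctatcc
DERL1 A_70_P035957: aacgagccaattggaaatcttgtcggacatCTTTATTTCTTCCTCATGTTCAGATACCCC
CXCL1 A_70_P039396: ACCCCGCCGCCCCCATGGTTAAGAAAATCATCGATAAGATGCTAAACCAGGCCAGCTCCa
CXCL1 A_70_P039397: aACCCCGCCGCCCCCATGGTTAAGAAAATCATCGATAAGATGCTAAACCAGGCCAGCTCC
ALDOA A_70_P041621: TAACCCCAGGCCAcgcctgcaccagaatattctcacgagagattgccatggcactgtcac
ALDOA A_70_P041622: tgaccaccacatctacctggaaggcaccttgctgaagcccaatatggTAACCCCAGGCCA
FGF7 A_70_P029931: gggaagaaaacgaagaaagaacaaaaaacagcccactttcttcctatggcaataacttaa
FGF7 A_70_P029932: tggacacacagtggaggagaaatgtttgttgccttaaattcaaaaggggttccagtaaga

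The 2 RGS2 probes shown overlap in 20 bases and gave differences of 0.19 (SE 0.06, limma p of 0.00724) and 0.21 (SE 0.07, limma p of 0.0119), higher on each slide. The brighter probe described above, which carries the name RGS2 only by tracing, gave 0.64, so all 3 readings were higher in CORT lambs while their sizes differed. The DERL1 probes share 30 bases and gave 0.33 and 0.32, and the ALDOA probes share 13 bases and gave 0.32 and 0.22. The CXCL1 probes are shifted by 1 base, share 59 of 60 bases and gave 1.29 and 1.51, so they amount to a single reading. The FGF7 probes share no stretch. Of these, A_70_P029932 differed by -0.38 (SE 0.09, exact permutation p = 0.0019), while A_70_P029931 gave -0.17 (SE 0.17, limma p of 0.32), and 2 further FGF7 probes gave 0.07 and 0.02. The reading for FGF7, a growth factor of fibroblasts that acts on epithelium, therefore rests on 1 of 4 probes. PABPC1, the poly(A)-binding protein, was also uneven, with 0.34 (SE 0.12, exact permutation p = 0.011) from the traced probe and -0.21 and -0.24 from the other 2.

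Of the 900 probes, 29 differed by at least 2-fold and all 29 were higher in CORT lambs. Of the 29, 17 have a gene name, among them CLCN6, TM9SF2, CDK2AP2, LSR, TSC2, CXCL1 and, described above, DGAT2. CLCN6, an endosomal chloride transporter, had the largest value, with a difference of 2.15 (SE 0.77, p = 0.0136, exact permutation p = 0.0567), or 4.44-fold. Its Control values were 8.17 at the lowest, 11.74 at the median and 13.28 at the highest, and those of CORT lambs were 11.57, 12.78 and 15.53. CORT 1 and 2 were the highest and Control 3 and 8 the lowest of all 16 lambs, while the values of the other 12 lay between 10.65 and 13.30. TM9SF2, a protein of endosomal and Golgi membranes, differed by 1.78 (SE 0.66), and CDK2AP2, an inhibitor of cyclin-dependent kinase 2, by 1.76 (SE 0.65). LSR, a receptor for lipoproteins, differed by 1.51 (SE 0.55), and TSC2, which inhibits growth signalling through mTOR, by 1.20 (SE 0.44). The exact permutation p of these 4 lay between 0.0633 and 0.0743. CXCL1, a chemokine that attracts neutrophils, was added after its values were seen and differed by 1.29 (SE 0.42, exact permutation p = 0.027). CXCL1 had a value for 7 of 8 Control lambs.

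The 29 probes shared a pattern over the arrays, which is given as a description because they were chosen by their difference. Relative to each probe's median over the 16 arrays, their median was 2.32 on CORT 1 and 1.46 on CORT 2. It was -1.11 and -1.16 on Control 1 and 2, -2.54 on Control 3 and -2.25 on Control 8. On the other 10 arrays it lay between -0.09 and 0.51. Control 3 and 8 were the 2 lowest Control arrays for 19 of the 29, and CORT 1 and 2 the 2 highest of all arrays for 23. The median difference of the 29 was 1.35 with all arrays and -0.09 without slide 1 and Control 3 and 8. In the LV, on other arrays, it was -0.11, and 0 of the 29 passed there. The median GC content of these probes was 48.3%, against 43.3% over all probes tested. The part of the GC content in these differences was not tested. DGAT2 was an exception, with a difference of 1.32 without slide 1 and those 2 Controls (limma p of 0.0134).

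**Figure D3:**
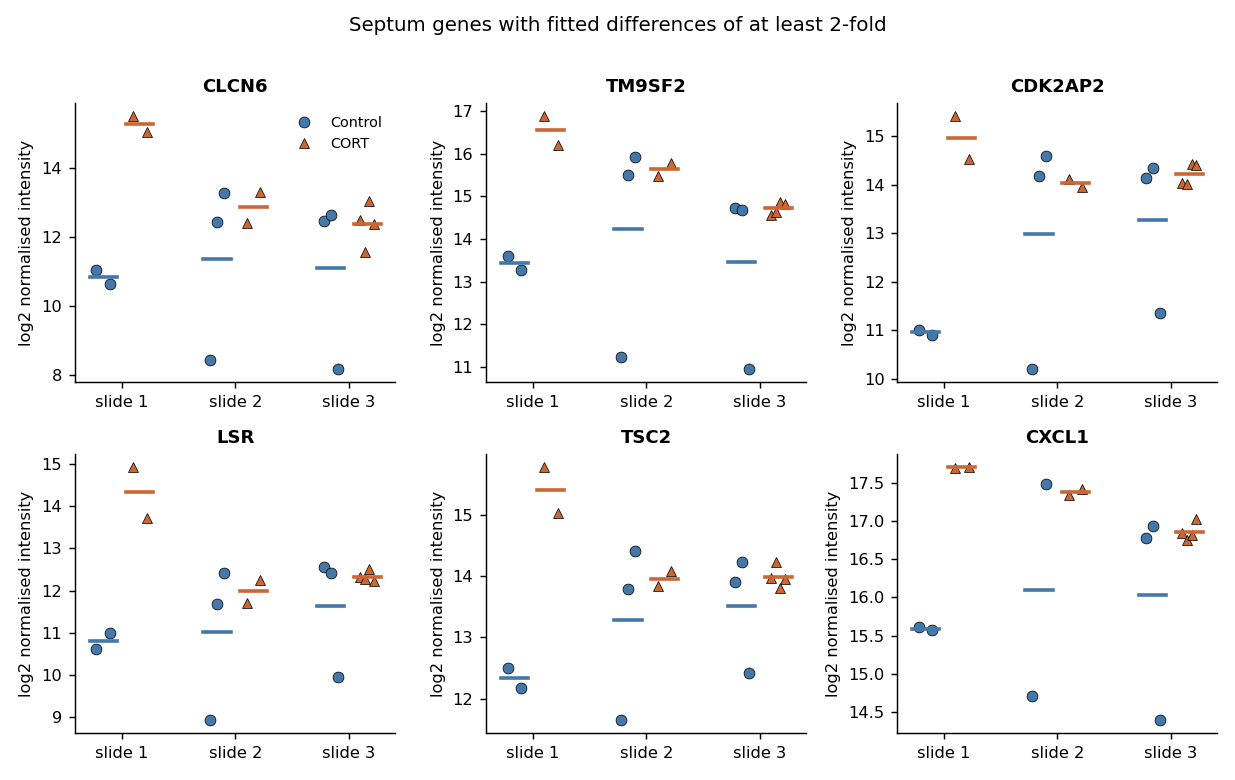
Log2 normalised intensity of 6 septum genes that differed by at least 2-fold, by slide (x axis), with Control lambs as blue circles, CORT lambs as orange triangles and the mean of each group on a slide as a bar. The groups are far apart on slide 1, and on slides 2 and 3 a single Control array (Control 3 and Control 8) lies below the rest.

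From the study's text and its table of septum pathways 51 genes were taken, and 50 were measured here. Of these, 39 had an unadjusted p below 0.05, 18 higher and 21 lower, and 10 did so without slide 1. The study's methods name no block for slide, so its test and the one here are not the same. The study chose these genes on the same arrays, so neither count is independent evidence, and the share of all probes that passed (7.49%) cannot be set against them. The plot of within-slide differences shows most of them.

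In protein processing of the endoplasmic reticulum (ER), SEC13, ERP29, SEC24C and HERPUD1 passed, all higher. HERPUD1, an ER membrane protein that assists the export of misfolded proteins for degradation, lay between 12.08 and 12.75 (median 12.37) in Control and between 12.48 and 13.34 (median 12.76) in CORT lambs. Its difference was 0.37 (SE 0.12, p = 0.00567, exact permutation p = 0.00857), and it passed without slide 1 (0.30) and without slide 1 and Control 3 and 8 (0.23), though not without slide 2 (limma p of 0.0763). SEC13 and SEC24C are coat proteins of the vesicles that leave the ER. SEC13 differed by 0.33 (SE 0.10, exact permutation p = 0.0114) and also passed without slide 1 (limma p of 0.0476). Without slide 1 and Control 3 and 8 SEC13 differed by 0.10 (limma p of 0.16). SEC24C differed by 0.68 (SE 0.26) over all slides, by 1.95 on slide 1 and by 0.26 and 0.24 on the others. ERP29, an ER chaperone, differed by 0.17 (SE 0.07), and by 0.10 without slide 1 (limma p of 0.228). In a broader list of ER proteins named by the files, 3 of 6 passed, all higher: ERP29, DERL1 and ATF4. Of all genes named by the files, 8.28% passed. ERP29 is also one of the study's genes, and without slide 1 only 1 member of the list, ATF4, passed. DERL1, a channel component for the same export, differed by 0.33 (SE 0.15), and by 0.17 without slide 1 (limma p of 0.275). ATF4, the transcription factor of the integrated stress response, differed by 0.28 (SE 0.11), with 7 of 8 CORT lambs above all Controls and CORT 2 below them. Its difference was 0.28 without slide 1 as well (limma p of 0.00636), but it did not pass without slide 2 (0.0648) or slide 3 (0.262). HSPA5 (-0.06), XBP1 (-0.09) and PDIA4 (-0.13), further members of the list, had p-values above 0.05.

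In ubiquitin-mediated proteolysis RCHY1, TCEB1 and ANAPC11 passed, all higher and each with the largest difference on slide 1. RCHY1, a ubiquitin ligase for p53, differed by 0.23 (SE 0.08), TCEB1, elongin C, by 0.38 (SE 0.15) and ANAPC11, the catalytic subunit of the anaphase-promoting complex, by 0.34 (SE 0.11). Without slide 1 each of the 3 differed by 0.18, and their p-values lay between 0.0647 and 0.229. Of 5 other genes of ubiquitin conjugation and 5 of the proteasome that the files name, 0 passed at the unadjusted threshold of limma. UBA1, which activates ubiquitin, gave 0.13 (limma p of 0.0617) by its brightest probe, while a second probe passed with 0.14 (limma p of 0.0254). The median difference was 0.00 in the former list and 0.06 in the latter.

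For mitochondria the study names 4 mitochondrial ribosomal proteins (MRPL2, MRPL33, MRPS11, MRPS33) and 4 proteins of protein import (TIMM8A, TIMM8B, TOMM5, MTX1). Of the 8, 5 passed and were higher, with differences of all 8 between 0.23 and 0.35. Without slide 1 their differences lay between 0.09 and 0.28 and 0 passed. Without slide 1 and without Control 3 and 8, TIMM8A, which shuttles proteins across the space between the mitochondrial membranes, had a p of 0.0433. In oxidative phosphorylation 1 of 6 genes named by the files passed. This was NDUFA12, a subunit of complex I, with 0.29 (SE 0.11) from 14 arrays, since 2 CORT values were missing, and with -0.04 on slide 3.

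In the spliceosome 5 of the 6 genes taken from the study's table were measured and 4 passed, all lower. SRSF1, an SR protein that helps to define exons, differed by -0.33 (SE 0.11, exact permutation p = 0.0324). PLRG1, of the complex that activates the spliceosome, differed by -0.33 (SE 0.13, exact permutation p = 0.0476). SNRNP40 (-0.30) belongs to the U5 particle and PRPF3 (-0.16) to the U4/U6 particle. The differences of SRSF1, PLRG1 and SNRNP40 were between -0.87 and -0.81 on slide 1 and between -0.24 and -0.03 on slides 2 and 3. Without slide 1 only PRPF3 passed among these 5 (limma p of 0.0485), and PRPF3 did not pass without slide 3 (0.167). SNRPA1, a U2 protein that the files name, was higher by 0.17 (SE 0.07, exact permutation p = 0.0195), with 0.13, 0.22 and 0.16 on the slides. SNRPA1 passed without slide 1 (limma p of 0.0181), and not without slide 2 (0.134) or slide 3 (0.103). LUC7L2 and C9orf78, described above, were lower and passed without slide 1.

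In RNA degradation EXOSC2 (-0.31), EXOSC10 (-0.15) and CNOT10 (-0.45, SE 0.13) passed, all lower. The first 2 are subunits of the exosome, which digests RNA from its 3′ end, and CNOT10 belongs to the complex that removes poly(A) tails. Of the 8 CORT lambs, 6 lay below all Controls for CNOT10. Without slide 1 the limma p was 0.0572 for CNOT10, 0.399 for EXOSC2 and 0.19 for EXOSC10. EXOSC2 differed by -0.83 on slide 1 and by 0.04 on slide 3. Among other RNA genes, POLR3GL, a subunit of RNA polymerase III, differed by -0.17 (SE 0.06) and NMD3, which exports the large ribosomal subunit, by -0.26 (SE 0.11). Their limma p-values without slide 1 were 0.0957 and 0.232. POLR1B (-0.19), TGS1 (-0.16) and RBM25 (-0.24) had p-values of 0.0511, 0.104 and 0.06. EEF1A1, a translation elongation factor, had 4 probes that gave -0.54, -0.52, 0.30 and 0.39, with a p above 0.05 for each. RAN, a GTPase of nuclear transport, was higher by 0.23 (SE 0.07, exact permutation p = 0.0119), and by 0.13 without slide 1 (limma p of 0.103).

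The AMP-activated kinase (AMPK), a sensor of cellular energy, is built of alpha, beta and gamma subunits. PRKAB2, a beta subunit, differed by -0.40 (SE 0.13, exact permutation p = 0.0138). Every CORT lamb lay below the Control mean of PRKAB2, and 4 lay below all Controls. The slides gave -0.82, 0.01 and -0.44. CAMKK2, which phosphorylates AMPK, differed by -0.29 (SE 0.12, exact permutation p = 0.0352), and PRKAG2, a gamma subunit, by -0.24 (exact permutation p = 0.121). Without slide 1 the p-values of the 3 lay between 0.0615 and 0.418. PRKAA2, an alpha subunit named by the files, differed by 0.05 (limma p of 0.61). Of the 11 AMPK and insulin signalling genes that the files name, 1 passed: GHR, the growth hormone receptor, with -0.24 (SE 0.09) and differences of -0.23, -0.23 and -0.26 on the slides. GHR did not pass without slide 1 (limma p of 0.0587), without slide 3 (0.112) or without the slide block (0.527). Of the 8 CORT lambs, 4 lay below its Control mean.

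In the lysosome LGMN, CD63 and MANBA passed, all lower and all also without slide 1. LGMN, a cysteine protease also called legumain, lay between 12.35 and 13.45 (median 13.06) in Control and between 12.26 and 13.00 (median 12.62) in CORT lambs. Its difference was -0.43 (SE 0.12, p = 0.00342, exact permutation p = 0.00952), and a second LGMN probe gave -0.38. MANBA, a lysosomal mannosidase, differed by -0.35 (SE 0.13), with 0.01 on slide 1 and -0.33 and -0.58 on the others, and did not pass without slide 2 (limma p of 0.0721) or slide 3 (0.386). CD63, a membrane protein of late endosomes and exosomes, differed by -0.24 (SE 0.08), and by -0.08 without slide 1 and Control 3 and 8 (limma p of 0.187). Of 9 lysosomal and autophagy genes named by the files, LGMN was lower and ATP6V0C, a subunit of the proton pump, was higher (0.27, SE 0.11), and the other 7 had p-values above 0.05.

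Genes of other listed pathways were mostly widest apart on slide 1. MAP3K7, a kinase of transforming growth factor beta and cytokine signalling, differed by -0.29 (SE 0.09, exact permutation p = 0.0148), by -0.20 without slide 1 (limma p of 0.0776) and by -0.08 without slide 1 and Control 3 and 8. PDE4B, which degrades cyclic AMP, differed by -0.40 (SE 0.13, exact permutation p = 0.0167) and passed without slide 1 (limma p of 0.0394), but not without slide 1 and Control 3 and 8 (0.165) or without slide 2 (0.0881). TPM3, a tropomyosin, differed by -0.19 (SE 0.08), and by -0.10, -0.38 and -0.10 on the slides. TPM3 passed without slide 1 (limma p of 0.044) and not without slide 2 (0.308) or without slide 1 and Control 3 and 8 (0.108). RARA, a receptor for retinoic acid, differed by -0.32 (SE 0.11), and RUNX1, a transcription factor, by -0.29 (SE 0.13), although the scanner marked its spot as well above background on only 4 Control and 2 CORT arrays. HMGB1, a chromatin protein released from damaged cells, differed by -0.22 (SE 0.09), and LAMA4, a laminin of vascular basement membrane, by -0.26 (SE 0.11). Without slide 1 the limma p was 0.112 for RARA, 0.138 for RUNX1, 0.197 for HMGB1 and 0.341 for LAMA4. The differences of MITF (-0.46), MBD4 (-0.37) and CYLD (-0.15) had p-values of 0.0616, 0.051 and 0.0875.

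**Figure D4:**
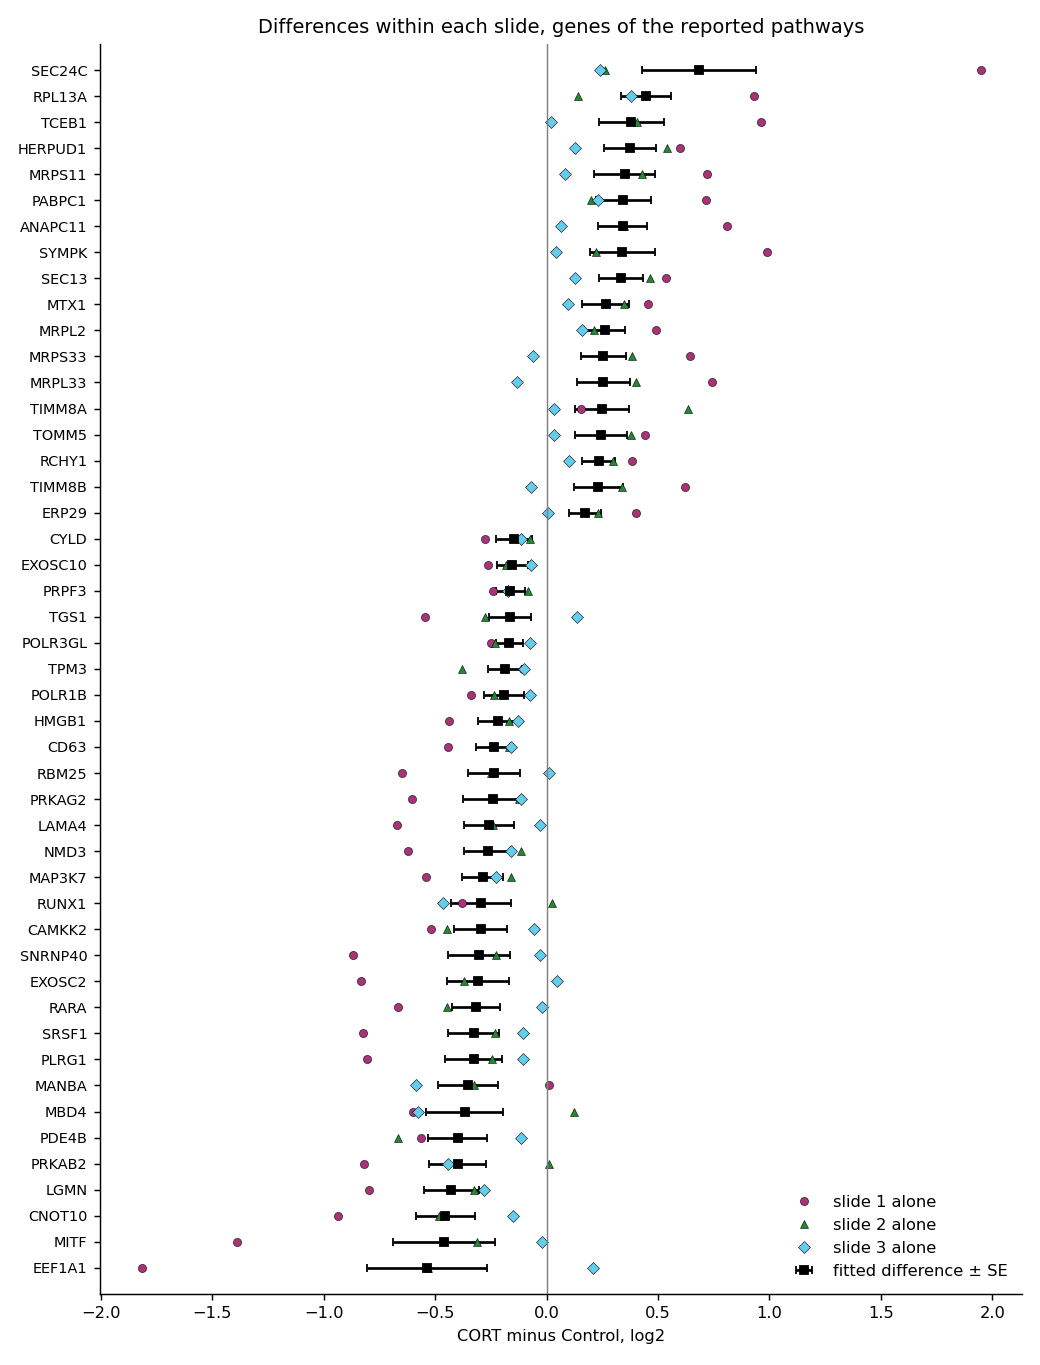
CORT minus Control in log2 intensity for the genes taken from the study's septum pathways other than LSR, TSC2 and DGAT2, with the fitted difference ± SE as black squares and the difference on each slide alone as coloured points. For most genes the slide 1 point lies farthest from 0, as for SEC24C at 1.95 and EEF1A1 at -1.82, while MANBA was 0.01 on slide 1 and -0.58 on slide 3.

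Lists of genes that the files name were counted beside the 8.28% of all file-named genes that passed. Of 7 tested genes known to be induced by glucocorticoids, 2 passed, both higher: RGS2, by a probe shown above, and ZFP36. ZFP36, which destabilises inflammatory messenger RNAs, differed by 0.63 (SE 0.27), by 2.04 on slide 1 and by 0.15 on each of the others, and its other probe gave -0.07. The other 5 were NFKBIA (0.24), CDKN1C (0.05), FBXO32 (0.00), PCK1 (-0.14) and CEBPB (-0.25). The glucocorticoid receptor itself, NR3C1, lay between 6.80 and 8.03 (median 7.33) in Control and between 7.37 and 7.99 (median 7.69) in CORT lambs. Its difference was 0.28 (SE 0.15, exact permutation p = 0.115), and 0.07 without slide 1. HSD11B1, which regenerates cortisol in cells, differed by 0.07 and HSD11B2, which inactivates it, by -0.12, both with p-values above 0.05.

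In lipid metabolism 3 of 10 genes passed. SCD, a desaturase that makes oleate, was higher (0.19, SE 0.08), and LPL, which frees fatty acids from lipoproteins (-0.22, SE 0.10), and FABP5, a carrier of fatty acids (-0.49, SE 0.18), were lower. All 3 had p-values above 0.05 without slide 1. PLIN5, a coat protein of lipid droplets in heart muscle, differed by 0.24 (limma p of 0.087), DGAT1, the other enzyme of triglyceride synthesis, by 0.08, and FASN by 0.11. Of 5 genes of fatty acid oxidation 0 passed at the unadjusted threshold of limma, among them CPT1A (-0.25, limma p of 0.151) and CPT1B (0.06, limma p of 0.68). Of 3 genes of the tricarboxylic acid cycle and its cytosolic branches, IDH1 and ACLY were lower. ACLY, which makes cytosolic acetyl-CoA from citrate, differed by -0.28 (SE 0.13, limma p of 0.0419, exact permutation p = 0.069), and by -0.16 without slide 1 (limma p of 0.284). In glycolysis 1 of 6 genes passed. This was ALDOA, an aldolase, with 0.22 (SE 0.09) from the brighter of its probes and -0.04 on slide 2, and GAPDH, LDHA and ENO3 had differences of 0.30, -0.31 and 0.02 with p-values above 0.05.

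Of 15 cytosolic ribosomal proteins 3 passed, with RPL13A and RPL34 higher and RPS25 lower, and the median of the list was 0.01. Of these 3, RPL13A alone passed without slide 1. Of 22 genes of the extracellular matrix and transforming growth factor beta, BGN, a small proteoglycan, was higher (0.24, SE 0.10), and TIMP3, an inhibitor of matrix proteases (-0.23, SE 0.08), and SMAD2, a signal transducer (-0.21, SE 0.08), were lower. Collagens COL1A2 (-0.05) and COL3A1 (0.05) had p-values above 0.05. Of 13 genes of vessel growth and vascular tone, RGS2 was higher and PTGER3, a prostaglandin receptor, lower (-0.35, SE 0.16), with 0.12 on slide 3. Of 23 immune genes, FCGRT, which recycles and transports immunoglobulin G, was lower (-0.35, SE 0.14), with 0.04 on slide 3. Without slide 1 none of BGN, TIMP3, SMAD2, PTGER3 and FCGRT passed, with limma p-values between 0.0705 and 0.375. Lists of the sarcomere (3 tested), calcium handling (4), redox defence (4), heat shock proteins (2), translation factors (6), cell cycle and growth control (14) and chromatin and transcription factors (6) had 0 members past the unadjusted threshold of limma by their brightest probes.

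The LV was measured on 16 other arrays from 8 CORT and 8 Control lambs, on 2 further slides. The labels do not say which LV and septum came from the same lamb. Per the methods, both tissues were cut from the hearts of 8 lambs per group, so the LV is not an independent set of animals. The main model of both tissues treated all arrays as independent. In a model of both tissues with slide as a block, 442 of 11582 probes (3.82%) passed in the LV. This share lay below the fraction of 0.05 that the threshold passes by chance. Of the 900 probes that passed in the septum, 891 were tested in both tissues, and 79 passed in the LV as well, all 79 in the same direction. The interaction of tissue and treatment passed for 572 probes (4.94%), 326 of them with septum minus LV above 0, and for 0 after adjustment (lowest adjusted p = 0.97).

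Several septum differences were of like size in the LV. DNAJC21 differed by -0.56 in the LV (limma p of 7.29e-05) and RGS2 by 0.62 (0.000893). C9orf78 differed by -0.42 there (limma p of 0.00227) and LGMN by -0.39 (0.00455). IDH1 (-0.46), TMOD3 (-0.61), BTBD10 (-0.26), HERPUD1 (0.28), TMCO6 (0.32), ING3 (0.31), RCHY1 (0.22), PDE4B (-0.38) and GHR (-0.41) also passed in the LV in the direction of the septum. The interaction p of these 13 genes lay above 0.2 in each case, which does not show that the tissues were alike. DGAT2 was at 0.90 in the LV (limma p of 0.103). Of the 34 named genes that passed in the septum with and without slide 1, 31 had the same direction in the LV, 11 passed there and 8 had an interaction p below 0.05. Of the 51 that passed in the septum but not without slide 1, 37 had the same direction, 5 passed in the LV and 19 had an interaction p below 0.05. Among all 891 probes that passed in the septum and were tested in both tissues, 295 had an interaction p below 0.05. Both sets were chosen by their septum difference, which the interaction contains, so these counts are raised by the choice.

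For other genes the difference between the tissues itself passed, with an LV value whose p was above 0.05. SEC13, at 0.33 in the septum, was at -0.04 in the LV and had the lowest interaction p among the named genes (0.002). DERL1 was at -0.21 in the LV (interaction p of 0.00361), MAP3K7 at 0.01 (0.00575) and AIMP2 at 0.04 (0.00863). ZNF711 (-0.01 in the LV), VPS28 (0.00), ST6GAL2 (-0.02), GLUL (-0.11) and LUC7L2 (-0.08) likewise had an interaction p below 0.05 and passed in the septum without slide 1. CLCN6, TM9SF2, CDK2AP2, LSR, TSC2 and CXCL1 lay between -0.14 and -0.02 in the LV and had interaction p-values between 0.00287 and 0.0139. Since each slide held 1 tissue, a difference between the tissues and one between their slides cannot be told apart.

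**Figure D5:**
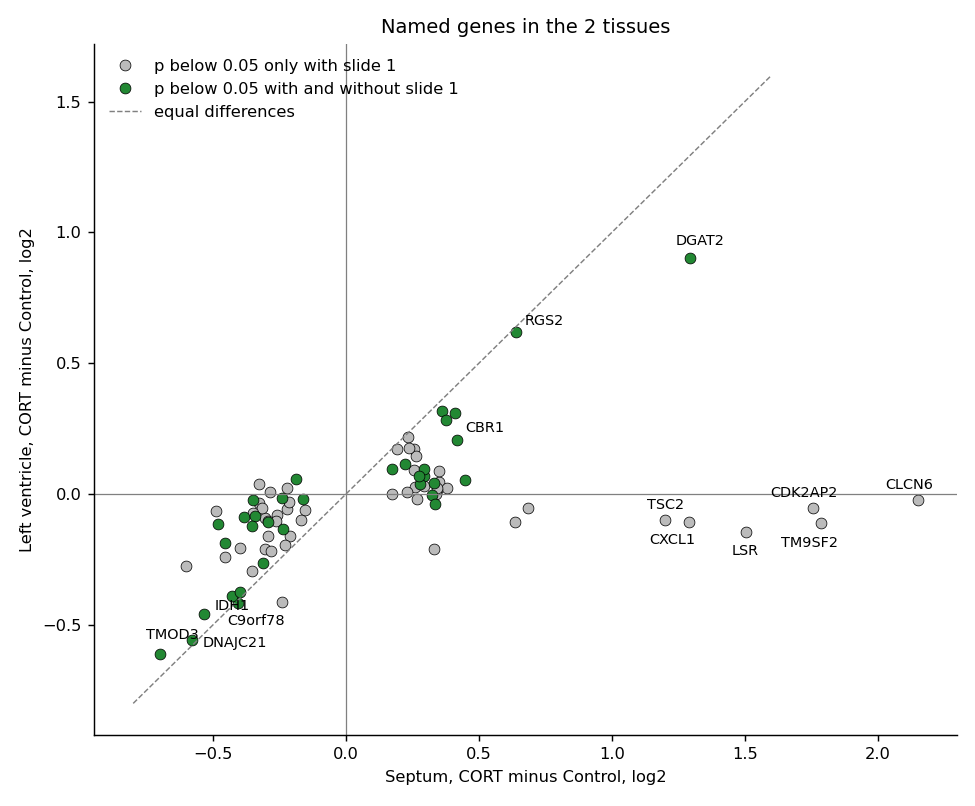
CORT minus Control in log2 intensity in the septum (x axis) and in the LV (y axis) for the named genes with an unadjusted p below 0.05 in the septum, where green points also passed without slide 1, grey points did not, and the dashed line marks equal differences. RGS2, DNAJC21, C9orf78, IDH1 and TMOD3 lie near the dashed line, and CLCN6, TM9SF2, CDK2AP2, LSR and TSC2 lie near 0 in the LV.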

How the data were processed

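Septum RNA of 16 lambs, 8 in each group, was hybridised to 1-colour arrays, 1 lamb per array. The authors deposited the scanner output, with an intensity and a local background for each spot (Feature Extraction 10.1.1.1, per its headers). They also deposited a matrix of log2 values of 9001 septum probes, background corrected, quantile normalized and filtered for brightness, which served as an alternative here. The paper's methods and the labels differ on the amount of RNA and the dye, which changes no value here.

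Mean spot intensities were corrected for the local background by normexp with an offset of 50, followed by quantile normalization of the 16 septum arrays, in limma 3.58.1 (R 4.3.3). Quantile normalization gives each array the same distribution, so a shift shared by most probes cannot be seen. Control spots and spots marked as outliers (at most 0.224% per array) were dropped, and replicate spots of 1 probe were averaged. A probe was tested when its intensity was above 1.1 times the 95th percentile of the negative controls on at least 8 arrays. It is separate from the scanner's own mark for spots well above background, which some tested probes carry on fewer than 8 arrays. Tests were two-sided (lmFit and eBayes) with slide as a fixed block, with 16 arrays limiting their precision. Adjusted p-values are Benjamini-Hochberg values over all 12020 probes. The test was checked on simulated data. For both tissues the 32 arrays were quantile normalized together.

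Names came from the scanner files and a table of 35057 sheep genes. They also came from tracing, in which 253 of the 256 genes in the copy of the study's septum list used here matched a single probe of the deposited matrix by fold change and p. The files name 13 of these probes the same, 3 otherwise and 237 not at all. With the listed p moved by 0.0007, 1.95% still matched. The eBayes settings used for tracing were those that gave the most single matches. Traced names were not used for lists. Described are named probes with the lowest p in each direction and the same sign on all slides, the largest differences of each direction, the genes that the study's text and pathway table name, list members past the threshold (or with the lowest p), and 4 unnamed probes. One probe per gene was taken, the traced or the brightest. A few genes are not reported here, and most of them were also left out of the lists counted. Genes and lists were chosen with earlier results of these data known. Alternatives changed the block, background correction, normalization, brightness limit, weights, eBayes settings and the arrays used. The removal of Control 3 and 8 was chosen after seeing the data.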

Additional observations from a re-analysis of the deposited data

Results flagged for a closer look

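For 16 genes 1 lamb stood apart from the other 7 of its group, by a gap to its nearest neighbour over the range of the group above the critical value of Dixon's test. Among 223 groups examined, chance gives about 1 in 20. Of the 16, 10 lay on slide 1, 2 on slide 2 and 4 on slide 3. All values are log2 intensities.

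CORT 2, on slide 1, was apart for 6 genes. It was low for ING3 (9.01, nearest 9.33), TRIM5 (7.59, nearest 7.89), EEF1A1 (14.74, nearest 15.21) and ATF4 (9.91, nearest 10.82), and high for MRPS33 (13.03, nearest 12.65) and PDE4B (9.52, nearest 8.99). CORT 1, on the same slide, was high for CDK2AP2 (15.42, nearest 14.52), FAM105A (8.42, nearest 7.87) and HERPUD1 (13.34, nearest 12.76). Control 2, also on slide 1, was low for SNRPA1 (11.64, nearest 12.05). ATF4, the transcription factor of the stress response, had the widest gap relative to its range (0.745), and its other 7 CORT lambs lay above all Controls.

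Control 3, on slide 2, was high for LUC7L2 (9.54, nearest 9.19) and low for SEC24C (9.09, nearest 9.91). Control 8, on slide 3, was high for MBD4 (11.71, nearest 11.45) and low for UBA1 (8.68). CORT 6 was low for TPM3 (13.81, nearest 14.07) and CORT 7 high for LYZ (8.12, nearest 7.42), both on slide 3.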

How the results depend on the processing

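The counts of 900 probes past the unadjusted threshold, of 0 past the adjusted one, of 89 single genes and unnamed probes, of 25 list members and of 572 interactions were recomputed. Without the slide block 433 probes, 10 list members and 240 interactions passed, and with arrays weighted by quality 339 interactions. Without slide 1 it was 331 probes, 38 single genes and 8 list members, and without slide 3 2288 probes, 47 list members and 1 after adjustment. Without slide 1 and Control 3 and 8 it was 428 probes, 31 single genes and 9 list members. Leaving out 1 array gave 560 (Control 2) to 1482 (Control 8) probes, with 1382 without Control 5, 0 after adjustment each time, 66 to 98 single genes and 12 to 32 list members (13 without Control 2, 12 without CORT 1). Of the named genes, 52 passed with each array left out in turn. No label says that a replicate number pairs lambs of the groups or ties the tissues of 1 lamb, and a replicate block in place of slide gave 657 probes and 695 interactions. The split of 480 higher and 420 lower probes (53.3% higher) moved most without the slide block, to 166 and 267 (38.3%). It was 379 and 510 (42.6%) with the processed signal, and 614 and 388 (61.3%) with cyclic loess. Within single slides values were taken and no test was run.

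Signs turned without slide 1 and Control 3 and 8 for CLCN6 (-0.10), TM9SF2 (-0.030), CDK2AP2 (-0.16), SEC24C (-0.017), TSC2 (-0.10), LSR (-0.12), CXCL1 (-0.037), ZFP36 (-0.083), DERL1 (-0.021), SNRNP40 (0.018), RBM25 (0.047), EEF1A1 (0.030), ATP1B1 (0.14) and LYZ (0.051). Among the described genes past the threshold, they turned on slide 3 alone for MRPL33 (-0.13), MRPS33 (-0.062), EXOSC2 (0.045), NDUFA12 (-0.041), PTGER3 (0.12) and FCGRT (0.035), on slide 2 alone for PRKAB2 (0.0096), RUNX1 (0.023), ALDOA (-0.042) and SMAD2 (0.0047), and on slide 1 alone for MANBA (0.0098). TPM1 turned with cyclic loess (-0.18) and without slide 3 (-0.025), and ATP1B1 with the processed signal (0.066) and with weights (0.0042). The cause was not tested. The number of arrays and the signal over background limit what could be seen.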
